A study of Rattus norvegicus with 24 samples.

Results

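The genes described here are 10 genes tied to the macrophage lineage. The list opens with the lysosomal marker Cd68, the scavenger and lectin receptors Mrc1 and Cd163, and the complement C1q chains C1qa, C1qb and C1qc. It goes on with the growth factor Csf1, its receptor Csf1r, the adhesion receptor Adgre1 and the lipopolysaccharide co-receptor Cd14. Csf1 is included as the ligand of Csf1r and not as a marker. The 10 genes were taken by their symbols in the platform annotation from the 14324 genes that carry a single symbol there. Each of the 10 was represented by 1 of the 28894 transcript clusters of the array. RNA came from the renal cortex and the renal medulla of 12 male Wistar rats, 6 on a control diet and 6 on lithium, which gave 24 arrays and 6 arrays in each of the 4 groups, cortex control, cortex lithium, medulla control and medulla lithium. Control rats ate standard rodent food and drank tap water for 6 months. Lithium rats received 40 mmol lithium per kg of food for 7 days and 60 mmol per kg afterwards, also over 6 months in all, and had a salt block, so that the diets differ in both. The growth notes of the arrays name the higher amount alone, and the age of the rats was not given in the sources used here. Rats are named below by the number that the labels give them, and both arrays of a rat carry the same number.

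Resident macrophages of the kidney lie in the interstitium between tubules and vessels, where they take up debris and immune complexes, and their survival depends on signalling through the receptor encoded by Csf1r. C1q is the recognition part of the first complement component. It is assembled from the products of C1qa, C1qb and C1qc and, unlike most complement proteins, is made chiefly by macrophages and dendritic cells rather than by the liver. The array measures RNA of whole tissue, so that a higher signal of a marker can come from more cells of a type or from more RNA per cell, and these cannot be told apart.

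Values are deposited log2 signal intensities. Array medians ran from 5.75 to 5.83 in cortex and from 6.12 to 6.22 in medulla, so levels were not compared between tissues. The tissue labels were checked on 10 proximal tubule markers, whose mean lay between 10.53 and 11.15 on the cortex arrays and between 6.73 and 8.91 on the medulla arrays, and on 10 collecting duct and inner medulla markers, which lay between 7.13 and 7.79 in cortex and between 9.13 and 10.57 in medulla. The authors had removed the effect of scan date, and arrays of 1 scan date leave a recognisable trace of this in the values. In medulla 3 scan groups of 4 rats were recovered in this way, each with 2 rats of either diet. The cortex had the same groups except that rat 17 stood alone there, and its cortex array equals the mean of the lithium cortex arrays within 8e-05 log2 units. That array was left out of SDs and exact tests, which leaves n = 5 for lithium cortex. A cluster was tested in a tissue where 4 or more of its 12 arrays reached a log2 value of 6. This kept 9 of the 10 genes in medulla (without Cd163) and 8 in cortex (without Mrc1 and Cd163). Changes were tested with limma across all clusters kept in a tissue, with scan group in the fit and Benjamini-Hochberg adjustment, and a gene is said to have risen or fallen at an adjusted p under 0.05.

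In medulla, Cd68, Mrc1 and C1qa rose with lithium, each to about double the control signal. C1qb and C1qc were also higher on every lithium array than on any control array, at adjusted p-values above the threshold. Csf1r, Adgre1, Cd14 and Cd163 were higher on average with overlapping groups, and Csf1 differed by less than the spread between rats. Of the 16025 clusters tested in medulla, 0.83% rose and 0.356% fell, and 19.6% had an unadjusted p under 0.05 in either direction. Cd68 and C1qa reached the filter value of 6 on all 12 medulla arrays. Mrc1 reached it on the 6 lithium arrays alone and so entered the test only through the group where it was high.

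**Figure D1:**
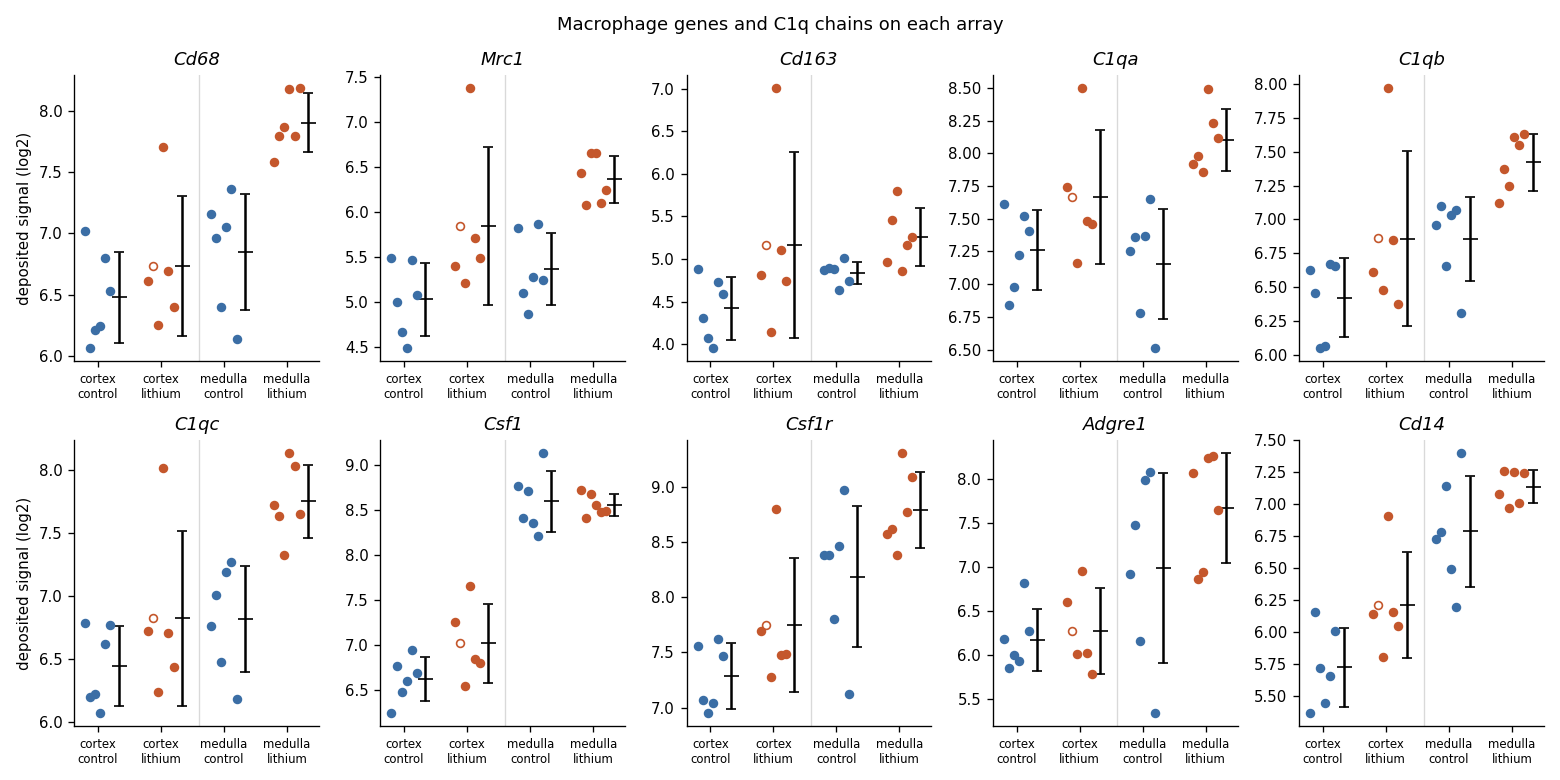
Deposited log2 signal of each of the 10 genes on every array (points), by tissue and diet, with the mean and SD of each group (black bars; n = 6, and n = 5 in lithium cortex, where the open circle is the array that equals the group mean). In medulla the lithium points of Cd68, Mrc1, C1qa, C1qb and C1qc lie above all control points, and the array of lithium rat 19 is the highest cortex array in all 10 panels.

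Cd68 encodes a glycoprotein of the late endosomes and lysosomes of macrophages. The signal of Cd68 in control medulla was 7.16 in rat 1, 6.96 in rat 13, 6.40 in rat 15, 7.05 in rat 16, 7.36 in rat 29 and 6.14 in rat 30. In lithium medulla it was 7.58 in rat 6, 7.80 in rat 17, 7.87 in rat 18, 8.18 in rat 19, 7.80 in rat 21 and 8.19 in rat 22. All 6 lithium arrays lay above the highest control array, and rats 15 and 30 were the lowest. The means were 6.85 ± 0.47 (SD, n = 6) in control and 7.91 ± 0.24 (SD, n = 6) in lithium medulla. The difference of 1.06 on the log2 scale (SE 0.21, 95% interval 0.59 to 1.53), or 2.09-fold, had an adjusted p of 0.0411 by limma. Within the 3 scan groups it was 0.63, 1.31 and 1.25.

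Mrc1 encodes the mannose receptor, an endocytic lectin of tissue macrophages. The signal of Mrc1 in control medulla was 5.82, 5.10, 4.86, 5.27, 5.86 and 5.24 in rats 1, 13, 15, 16, 29 and 30. In lithium medulla it was 6.43, 6.08, 6.65, 6.66, 6.10 and 6.24 in rats 6, 17, 18, 19, 21 and 22. The groups did not overlap, and no control array reached the filter value. Its difference was 1.00 (SE 0.19, 95% interval 0.57 to 1.42), or 2.00-fold, with an adjusted p of 0.0376 by limma. The scan groups gave 0.79, 1.58 and 0.62.

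The promoters of Cd68 and Mrc1 are shown because both genes rose in medulla, as RefSeq sequence of the build GRCr8 taken as 300 bases around the start of each gene, most of them before it. The files were made on rn4, and no position from them was carried over. Capitals mark GAGGAA, the core letters of the sites of the myeloid transcription factor PU.1, and TGANTCA, the AP-1 letters, on either strand (TTCCTC is GAGGAA on the other strand). RefSeq entries were matched by symbol for 8 of the 10 genes, all but C1qc and Csf1. The Cd68 promoter is at chr10:54882392-54882691 on the minus strand and the Mrc1 promoter at chr17:82157475-82157774 on the plus strand, each written 5′ to 3′ in the direction of the gene.
Cd68: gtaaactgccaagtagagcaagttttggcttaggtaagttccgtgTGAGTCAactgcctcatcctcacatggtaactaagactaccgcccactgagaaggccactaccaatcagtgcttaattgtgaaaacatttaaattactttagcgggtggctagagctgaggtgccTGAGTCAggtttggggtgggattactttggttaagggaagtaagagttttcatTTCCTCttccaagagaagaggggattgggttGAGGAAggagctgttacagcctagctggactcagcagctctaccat
Mrc1: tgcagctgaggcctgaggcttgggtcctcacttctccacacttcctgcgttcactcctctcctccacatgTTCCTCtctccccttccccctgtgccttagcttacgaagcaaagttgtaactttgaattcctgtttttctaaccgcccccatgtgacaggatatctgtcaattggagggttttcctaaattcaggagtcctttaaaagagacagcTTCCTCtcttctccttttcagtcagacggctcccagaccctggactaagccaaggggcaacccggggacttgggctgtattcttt
Cd68 held 2 matches to GAGGAA and 2 to TGANTCA, and Mrc1 held 2 to GAGGAA, with no overlap between the motifs. GAGGAA was present in 27.6% and TGANTCA in 7.33% of the 33469 promoters of the same length. Matches describe the letters in these windows only.

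The 3 C1q chains were higher in lithium medulla together, with C1qa past the threshold. The signal of C1qa in control medulla was 7.25, 7.36, 6.78, 7.37, 7.65 and 6.51 in rats 1, 13, 15, 16, 29 and 30. In lithium medulla it was 7.92, 7.98, 7.86, 8.49, 8.23 and 8.12 in rats 6, 17, 18, 19, 21 and 22. As for Cd68, every lithium rat was above every control rat and rats 15 and 30 were lowest. C1qa differed by 0.95 (SE 0.20, 95% interval 0.52 to 1.38), or 1.93-fold, with an adjusted p of 0.0454 by limma.

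C1qc read 6.76, 7.01, 6.48, 7.19, 7.27 and 6.18 in the control rats in the same order, and 7.72, 7.64, 7.33, 8.14, 8.03 and 7.65 in the lithium rats. Its difference of 0.94 (SE 0.21, 95% interval 0.48 to 1.39), or 1.91-fold, had an adjusted p of 0.0544 by limma. C1qb read 6.96, 7.10, 6.66, 7.03, 7.07 and 6.31 in control and 7.12, 7.37, 7.25, 7.61, 7.55 and 7.63 in lithium medulla. The lowest lithium value of C1qb, 7.12, was just above the highest control value, 7.10, and the difference was 0.56 (SE 0.16, 95% interval 0.22 to 0.91), or 1.48-fold, at an adjusted p of 0.0985 by limma. Within scan groups the difference ran from 0.64 to 1.10 for C1qa, from 0.80 to 1.11 for C1qc and from 0.22 to 0.89 for C1qb.

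The C1q genes are neighbours on chromosome 5 of the rat, in the order C1qb, C1qc, C1qa. Promoters of the chains at both ends are shown because the chains moved together, with the same marks as above. That of C1qa is at chr5:154419884-154420183 and that of C1qb at chr5:154407778-154408077 of GRCr8, both on the minus strand.
C1qa: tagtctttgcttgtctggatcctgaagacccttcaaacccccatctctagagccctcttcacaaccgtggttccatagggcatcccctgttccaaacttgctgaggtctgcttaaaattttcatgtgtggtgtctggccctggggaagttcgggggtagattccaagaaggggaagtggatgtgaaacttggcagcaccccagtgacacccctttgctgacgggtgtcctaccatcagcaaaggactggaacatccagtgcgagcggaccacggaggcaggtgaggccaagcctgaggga
C1qb: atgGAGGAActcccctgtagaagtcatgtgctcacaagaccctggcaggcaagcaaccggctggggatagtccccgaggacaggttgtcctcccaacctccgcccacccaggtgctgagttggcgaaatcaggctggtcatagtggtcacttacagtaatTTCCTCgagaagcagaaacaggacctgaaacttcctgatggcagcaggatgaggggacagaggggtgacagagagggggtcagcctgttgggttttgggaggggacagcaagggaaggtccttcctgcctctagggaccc
C1qb held GAGGAA 2 times, once on each strand, and C1qa held neither motif. Of the other promoters matched, those of Csf1r and Cd14 held 2 GAGGAA each, that of Adgre1 held 1, and that of Cd163 held neither motif.

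Without overlap between the diets, the 5 genes Cd68, Mrc1, C1qa, C1qb and C1qc gave the smallest p that exchanges within scan groups allow, 0.00926 (2-sided exact permutation test over 216 exchanges, 20 such tests in all). That p follows from the lack of overlap and is no separate evidence. Mrc1 had also passed the filter through its lithium arrays alone. Over all medulla clusters tested, 2.12% had every lithium array above every control array. The calls of the fit across all clusters sat close to the threshold. Leaving out each of the 12 arrays in turn kept the fold changes between 0.88 and 1.19 for Cd68, 0.87 and 1.12 for Mrc1, and 0.79 and 1.07 for C1qa. The calls themselves held in 3 of these 12 fits for Cd68 (without rats 6, 29 and 30), in 3 for Mrc1 (without rats 1, 6 and 29) and in 2 for C1qa (without rats 6 and 29), with adjusted p-values between 0.0206 and 0.124. With no scan group in the fit all 5 genes were called, where 3.33% of clusters rose. Scan date had already been removed from the values, so that fit counts too many residual degrees of freedom. Its p-values are therefore too small. With no filter on low values Mrc1 alone was called, and with the methods' analysis of variance after adjustment none was.

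Neither the growth factor nor its receptor was called in medulla, and their differences were not compared by a test. Csf1, the main ligand of the receptor, read 8.77, 8.41, 8.71, 8.36, 8.21 and 9.14 in control rats 1, 13, 15, 16, 29 and 30, and 8.72, 8.41, 8.68, 8.56, 8.48 and 8.49 in lithium rats 6, 17, 18, 19, 21 and 22. The lithium values fall inside the range of the control values, with a difference of -0.04 (SE 0.15, 95% interval -0.38 to 0.29, adjusted p = 0.899 by limma). Csf1r, the receptor tyrosine kinase for Csf1 and Il34, read 8.38, 8.38, 7.80, 8.46, 8.97 and 7.12 in control and 8.57, 8.62, 8.38, 9.31, 8.77 and 9.09 in lithium medulla. Control rats 16 and 29 lay inside the lithium range and rats 1 and 13 at its lower end, and the difference of 0.60 (SE 0.29, 95% interval -0.02 to 1.23) had an adjusted p of 0.271 by limma. Without control rat 30 it was 0.34.

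Adgre1 encodes a surface receptor of the adhesion family that is widely used as a macrophage marker. It had the widest spread among the 10 genes in control medulla, with 6.92, 7.48, 6.16, 7.99, 8.08 and 5.34 in rats 1, 13, 15, 16, 29 and 30, an SD of 1.08. The lithium rats read 8.07, 6.87, 6.95, 8.24, 8.26 and 7.65, so that rats 17 and 18 lay below 3 or more of the controls. The difference of 0.68 (SE 0.48, 95% interval -0.37 to 1.73) had an adjusted p of 0.455 by limma. It was 0.27 without control rat 30 and 0.95 without control rat 29.

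Cd14, which presents lipopolysaccharide to Toll-like receptor 4, read 6.73, 6.78, 7.14, 6.49, 6.20 and 7.40 in control and 7.08, 7.26, 6.97, 7.25, 7.01 and 7.24 in lithium medulla. Control rats 15 and 30, the lowest for Cd68 and C1qa, were here the highest controls, and rat 30 was above all lithium rats. Its difference of 0.35 (SE 0.18, 95% interval -0.06 to 0.75) had an adjusted p of 0.323 by limma, and it was 0.20 without control rat 29 and 0.50 without control rat 30. Cd163, the scavenger receptor for haptoglobin and haemoglobin, lay below the filter value throughout, from 4.64 to 5.01 in control and from 4.86 to 5.80 in lithium medulla. In a fit without the filter its difference was 0.42 (SE 0.15, adjusted p = 0.222 by limma), and the exact permutation test within scan groups gave p = 0.0185.

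Over all 10 genes the median difference in medulla was 0.64, against -0.05 over the 9447 named genes tested there. Of the 10, 9 were higher on average, and the same 9 were higher within each of the 3 scan groups. The share of all clusters higher in every scan group was not counted. Many of the 10 varied together between rats, so these are not independent counts. The SD among lithium rats was smaller than among control rats for 9 genes in medulla, with Cd163 as the exception, and for 0 genes in cortex. The share of all clusters with a smaller SD in lithium was not counted. Centring each array on its own median gave 0.89 for C1qa with an adjusted p of 0.0518, and left Cd68 and Mrc1 called.

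**Figure D2:**
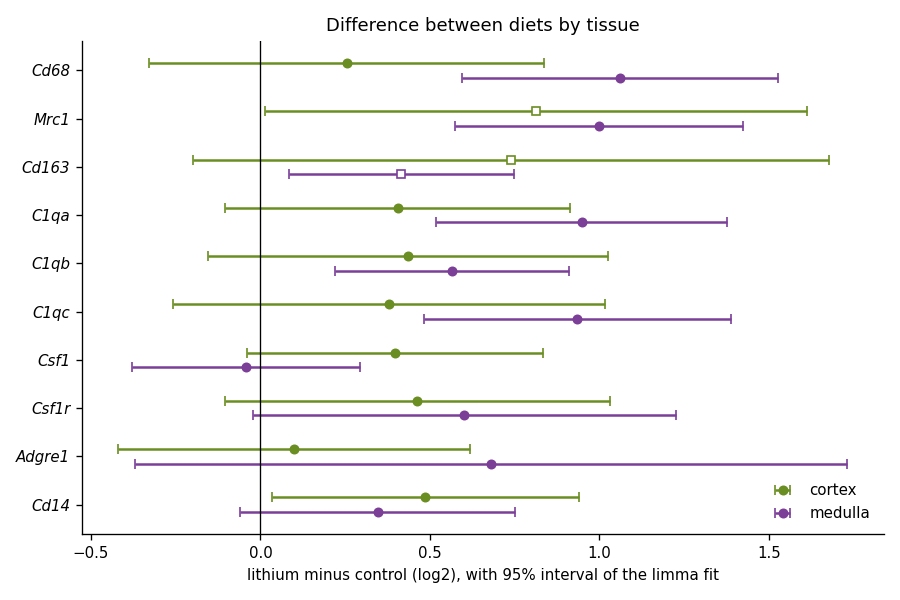
Lithium minus control on the log2 scale for each gene (points), with the 95% interval of the limma fit with scan group, in cortex (green) and medulla (purple). Filled circles passed the filter on low values, and open squares did not and come from the fit without it. The medulla intervals of Cd68, Mrc1, Cd163, C1qa, C1qb and C1qc lie above 0, and in cortex those of Mrc1 and Cd14 do while the other 8 cross it. Mrc1 in medulla passed the filter through lithium arrays alone, and Cd14 in cortex mainly through them.

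In cortex none of the 8 genes tested was called, while 0.465% of the 13766 clusters tested there rose and 0.109% fell. All 10 genes were higher on average with lithium, with a median difference of 0.42 against 0.02 over the 8296 named genes tested. At an unadjusted p under 0.05 the limma fit picked 1 gene, Cd14, against 7.54% of the clusters in either direction. Cd14 reached the filter value on 7 cortex arrays, among the controls only in rats 13 and 30. It thus entered the test mainly through the lithium arrays, where it was higher. The fit without scan group again called none, where 1.5% of clusters rose. No gene had every lithium array above every control array in cortex, against 1.85% of the clusters tested.

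Much of the cortex difference came with the array of lithium rat 19. Mrc1 read 5.49, 5.0, 4.66, 4.48, 5.46 and 5.07 in control cortex of rats 1, 13, 15, 16, 29 and 30. In lithium cortex it read 5.40, 5.21, 5.71 and 5.49 in rats 6, 18, 21 and 22 and 7.38 in rat 19. Rats 6 and 18 lay inside the control range, rat 22 at its top and rat 21 above it, and rat 19 stood far above all others. Cd163 had the same shape, from 3.95 to 4.88 in control cortex, from 4.14 to 5.10 in rats 6, 18, 21 and 22, and 7.01 in rat 19.

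The C1q chains followed in cortex. C1qa read 7.61, 6.84, 6.98, 7.22, 7.52 and 7.41 in the control rats, 7.74, 7.16, 7.48 and 7.46 in lithium rats 6, 18, 21 and 22, and 8.50 in rat 19. C1qb lay between 6.05 and 6.67 in control and between 6.38 and 6.85 in the same 4 lithium rats, with 7.97 in rat 19. For C1qc these ranges were 6.07 to 6.79 and 6.24 to 6.72, with 8.02 in rat 19. The 3 chains therefore overlapped between diets on all lithium arrays but that of rat 19 and, for C1qa, rat 6, and for C1qb, rat 21.

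With all arrays, the cortex differences were 0.40 for C1qa (SE 0.23, adjusted p = 0.746 by limma), 0.44 for C1qb (SE 0.27) and 0.38 for C1qc (SE 0.29). Without rat 19 they were 0.17, 0.12 and 0.04. Cd68 went from 0.25 to -0.03 and Csf1r from 0.46 to 0.16. Adgre1, with 0.10 over all arrays, went to -0.10, and it also turned to -0.06 without lithium rat 6.

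Csf1 and Cd14 depended less on that array. Csf1 read 6.24, 6.77, 6.48, 6.60, 6.94 and 6.69 in control cortex and 7.25, 6.54, 7.66, 6.84 and 6.80 in lithium rats 6, 18, 19, 21 and 22. Its difference of 0.40 (SE 0.20, adjusted p = 0.707 by limma) was 0.21 without rat 19. Cd14 read 5.37, 6.16, 5.72, 5.45, 5.66 and 6.01 in control cortex and 6.14, 5.81, 6.91, 6.16 and 6.05 in lithium rats 6, 18, 19, 21 and 22. Its difference was 0.49 (SE 0.21, unadjusted p = 0.0371 and adjusted p = 0.624 by limma), and it was 0.29 without rat 19.

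Mrc1 and Cd163 had the largest cortex differences, 0.81 (SE 0.37) and 0.74 (SE 0.43), in the fit without the filter, since both were low there. The exact permutation test within scan groups gave p = 0.0463 for Mrc1 and p = 0.0926 for Cd163 over 108 exchanges. Without rat 19 the differences were 0.37 and 0.21, and the median of the 10 genes fell from 0.42 to 0.16.

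The array of rat 19 also stood apart in other lists of genes. The mean over 39 other macrophage and myeloid genes was 7.14 on it, against 6.09 to 6.36 in lithium rats 6, 18, 21 and 22 and 6.03 to 6.45 in control cortex. The mean of 12 T and NK cell genes was 5.90 on it, against 5.34 to 5.68 in control, that of 10 neutrophil genes 5.19, against 4.55 to 4.84, and that of 10 proximal tubule genes 10.53, against 10.87 to 11.15. Their part in the cortex values was not tested. In medulla the array of the same rat was the highest of the 12 for C1qa, C1qc, Csf1r and Mrc1, though close to the next array, with 8.49 against 8.23 for C1qa.

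**Figure D3:**
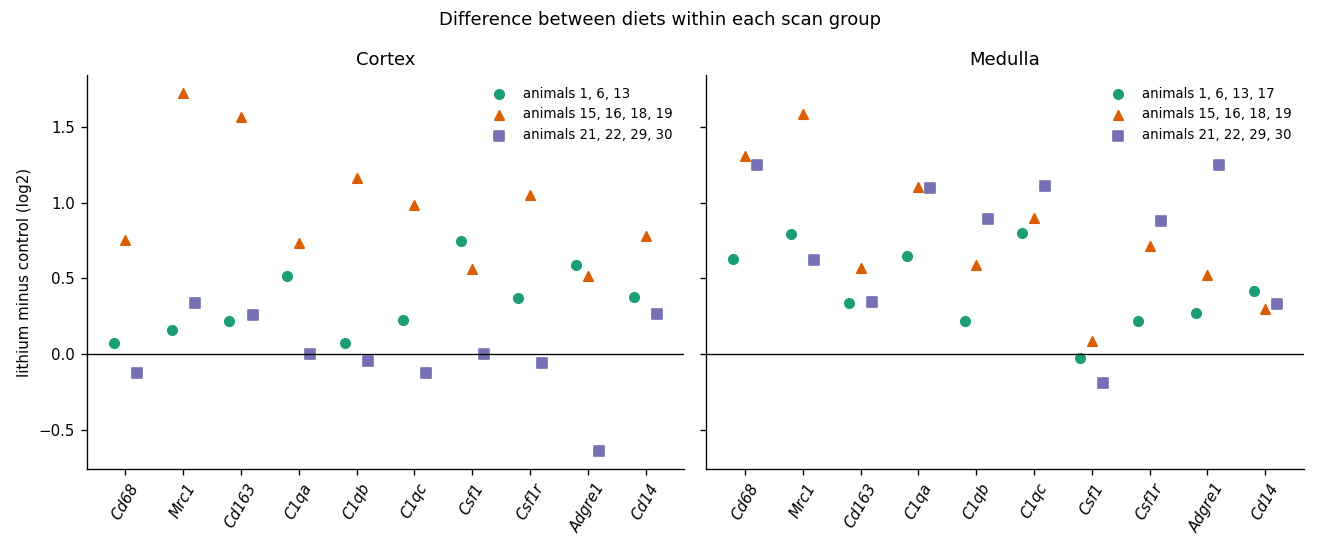
Lithium minus control on the log2 scale for each gene within each scan group, in cortex (left) and medulla (right), as the difference of the means of 1 or 2 rats per diet. In medulla all 3 scan groups lie above 0 for every gene except Csf1, and in cortex the group with rat 19 (triangles) is the highest for 8 of the 10 genes.

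A difference between the tissues was tested as the lithium effect in medulla minus that in cortex, over the 8 genes that passed the filter in both. None passed the threshold, and over all 13403 clusters tested 0.0821% did. Cd68 had an interaction of 0.81 (SE 0.36, 95% interval 0.04 to 1.57, unadjusted p = 0.0395 and adjusted p = 0.387 by limma). It was 0.61 without rat 30 and 1.02 without rat 19. The estimates for C1qa and C1qc were 0.54 (95% interval -0.14 to 1.22) and 0.56 (95% interval -0.24 to 1.35), which went to 0.34 and 0.30 without rat 30 and to 0.69 and 0.80 without rat 19, and that for C1qb was 0.13 (95% interval -0.56 to 0.82). Csf1 had -0.44 (95% interval -0.995 to 0.113). The rise of Cd68 and C1qa in medulla was thus not shown to differ from the change in cortex, and Mrc1 and Cd163 were too low in cortex for this test.

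Many of the genes varied together between rats of the same diet, though not all of them did in medulla. Correlations were computed over 12 medulla arrays and 11 cortex arrays from deviations from the diet means, for 45 pairs of genes in each tissue. Their permutations exchanged arrays across scan groups, although scan date had been removed from the values. The arrays are thus not fully free to be exchanged, and the p-values of r and rho tend to be too small. Where the 2 farthest arrays of a pair are left out, they are those farthest from the median of its first gene. The first gene is the one that comes earlier in the list at the opening. In medulla Pearson's r was 0.94 between C1qa and C1qc (rho 0.94), 0.91 between C1qa and C1qb (rho 0.85) and 0.82 between C1qb and C1qc (rho 0.71), and the r of these 3 pairs stayed between 0.82 and 0.90 without the 2 arrays farthest from the median. C1qa and Csf1r had an r of 0.96 (rho 0.90, adjusted permutation p = 0.000225 for r and 0.00157 for rho) and 0.92 without 2 arrays. Adgre1 and C1qc had an r of 0.95 (rho 0.95), and Cd68 and Csf1r an r of 0.93 (rho 0.88). Over all 45 medulla pairs the median r was 0.081, with 24 positive and 21 negative, and of the 28 pairs without Csf1 and Cd14 the adjusted p of r was under 0.05 in 15. Cd163, below the filter value on all medulla arrays, had an r between -0.38 and 0.08 with those other genes. Without the 2 farthest arrays its values ran from -0.155 to 0.357, so their sign rested on single arrays. Mrc1 had an r of 0.21 to 0.45 with the C1q chains and of 0.58 with Cd68 (rho 0.70, adjusted permutation p = 0.0735 for r and 0.0365 for rho, and 0.52 without the 2 farthest arrays).

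Csf1 and Cd14 ran the other way in medulla. All 16 correlations between either of them and the other 8 genes were negative, from -0.82 to -0.06. C1qb and Csf1 had an r of -0.82 (rho -0.78, adjusted permutation p = 0.00383 for r and 0.0175 for rho), and -0.59 without control rat 30 and lithium rat 6. Adgre1 and Cd14 had an r of -0.80 (rho -0.73, adjusted permutation p = 0.00393 for r and 0.0292 for rho), and -0.56 without control rats 30 and 15. Without the 2 arrays farthest for the first gene of each pair the 16 values ran from -0.59 to 0.17, so their size rested in part on those arrays.

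Control rat 30 carried both sides of this pattern, with the lowest Adgre1 (5.34), Csf1r (7.12), C1qa (6.51) and Cd68 (6.14) of all medulla arrays and the highest Csf1 (9.14) and Cd14 (7.40). It also had the lowest medulla means of the 39 macrophage and myeloid genes (6.16), of the 12 T and NK cell genes (5.56) and of the 6 red blood cell genes (5.97), and the lowest mean of the 10 proximal tubule genes among control rats (7.51, against up to 8.91 in rat 29). Its 10 collecting duct genes had a mean of 10.29, inside the control range of 9.69 to 10.57. The part of these lists in the correlations was not tested.

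In cortex all 45 correlations were positive. The 8 genes other than Csf1 and Cd14 gave r between 0.71 and 0.98 with a median of 0.93, and 0.81 as the median without the 2 farthest arrays, which included rat 19 in each pair. Csf1 and Cd14 correlated with the other 8 at 0.41 to 0.76, and at -0.45 to 0.66 without those arrays. Mrc1 and Cd163, which had an r of 0.98 in cortex (rho 0.96, and 0.92 without the 2 farthest arrays), had an r of 0.08 in medulla (rho -0.13, and -0.07 without the 2 farthest arrays). Neither gene passed the filter in cortex, and Cd163 did not pass it in medulla. Lithium rat 18 had the highest Cd163 of the medulla arrays, 5.80, and the lowest C1qa and C1qc of the lithium rats.

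**Figure D4:**
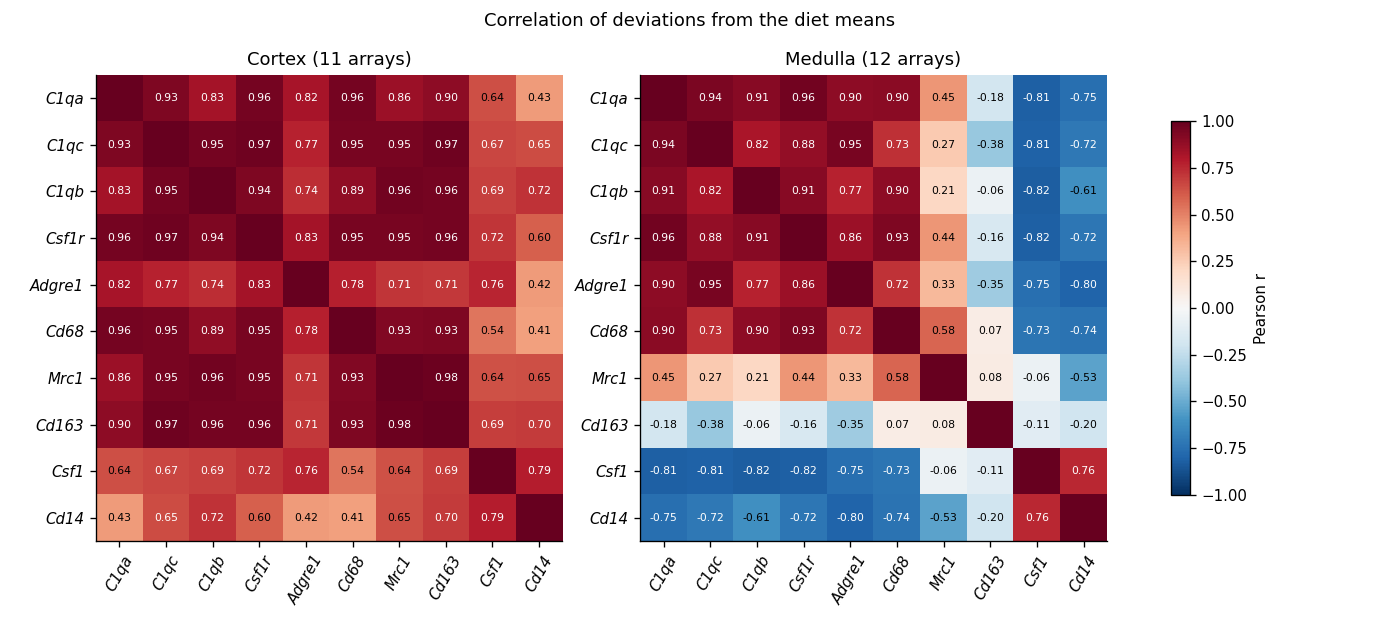
Pearson r between the 10 genes over the arrays of each tissue, from deviations from the diet means (red positive, blue negative, each value printed). In cortex all cells are positive, and in medulla the Csf1 and Cd14 rows are negative against the other 8 genes, Cd163 lies between -0.38 and 0.08 and Mrc1 is highest with Cd68, at 0.58.

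The named genes whose deviations were most like the mean of the C1q chains in medulla, over 12 arrays, were Laptm5 (r = 0.996), Itgb2 (0.989), Rac2 (0.976), Il10ra (0.973) and Cd4 (0.970). Laptm5 is a lysosomal protein of blood-derived cells, Itgb2 the common chain of the leukocyte integrins, and Cd4 is carried in rats by macrophages as well as by helper T cells. Their lithium differences in medulla lay between 0.68 for Rac2 and 0.81 for Itgb2, with adjusted p-values of 0.105 to 0.205 by limma. In cortex, over 11 arrays, the genes most like C1q were Rac2 (0.997), Gm2a (0.996), Lrp1 (0.990), Timp2 (0.990) and Lcn2 (0.988). Each r was at least 0.933 in medulla and at least 0.959 in cortex without the 2 arrays farthest from the median of the C1q mean. The ranking covered 9438 named genes in medulla and 8288 in cortex, with the C1q chains and the ranked genes read from the same arrays.

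Other genes of the macrophage lineage were taken as a list of 45, of which 39 had a named cluster. In medulla 33 were tested, 30 were higher with lithium, and the median difference was 0.45, against -0.05 over all named genes tested. A single one rose, Clec10a, a galactose-type lectin of macrophages and dendritic cells, by 0.84 (SE 0.16, adjusted p = 0.0310 by limma) from a control mean of 5.81 below the filter value. At an unadjusted p under 0.05 there were 16 of the 33, against the 19.6% of all clusters in medulla given above, and 5 were called with no scan group in the fit. In cortex none of 25 was called, 2 had an unadjusted p under 0.05, and their median was 0.18 against 0.02.

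Among other complement genes, 14 of the 24 with a cluster were tested in medulla and 1 rose. This was Cfp, which encodes properdin, the stabiliser of the alternative pathway convertase, with a difference of 0.65 (SE 0.13, adjusted p = 0.0457 by limma) from 7.31 ± 0.23 (SD, n = 6) to 7.95 ± 0.20 (SD, n = 6). The median of the 14 was -0.05, equal to that of all genes to 2 decimals. C1r and C1s, the proteases that join C1q in the first component and are given here for that role, differed by -0.21 (SE 0.12, adjusted p = 0.375 by limma) and -0.09 (SE 0.22, adjusted p = 0.849 by limma). In cortex all 13 complement genes tested were higher on average, with a median of 0.25, and none was called, nor was any at an unadjusted p under 0.05. The mean of the 24 complement genes was 6.79 on the cortex array of rat 19. It lay between 5.88 and 6.18 in lithium rats 6, 18, 21 and 22 and between 5.83 and 6.15 in control cortex. The part of that array in the 13 differences was not tested.

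Neither pathway list around the receptors held a called gene in either tissue. Of the genes of the CSF1 receptor axis, 12 were tested in medulla with a median of 0.15, and 4 had an unadjusted p under 0.05. Inpp5d, a phosphatase that limits signalling of myeloid receptors, had 0.53 (SE 0.16, adjusted p = 0.118 by limma) there, and the cell-surface proteoglycan Sdc1 had 0.13 (SE 0.18). Of the 10 tested in cortex, 2 had an unadjusted p under 0.05. These were Sdc1 with 0.30 (SE 0.10, adjusted p = 0.450 by limma) and Inpp5d with 0.33 (SE 0.13, adjusted p = 0.599 by limma). Of the genes of CD14 and Toll-like receptor 4 signalling, 15 were tested in medulla with a median of 0.01, and 2 had an unadjusted p under 0.05. These included Cd180, a Toll-like receptor relative best known from B cells, with -0.94 (SE 0.21, adjusted p = 0.0592 by limma), and Ly96, the partner of Toll-like receptor 4, with 0.34 (SE 0.12, adjusted p = 0.159 by limma). In cortex none of the 11 tested had an unadjusted p under 0.05.

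The list of macrophage activation products had 1 riser in each tissue. In cortex Lgals3, galectin 3, which macrophages and injured tubules both make, rose by 1.48 (SE 0.19, adjusted p = 0.00321 by limma), from 6.33 ± 0.19 (SD, n = 6) to 7.81 ± 0.43 (SD, n = 5). In medulla Mmp12, the macrophage elastase, rose by 1.10 (SE 0.23, adjusted p = 0.0460 by limma) from a control mean of 5.26 below the filter value. The medians were 0.25 over the 11 tested in cortex and 0.10 over the 14 tested in medulla. Of these, 6 in cortex and 9 in medulla were higher with lithium, and the rest were lower.

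Among markers of other immune cells in medulla, the T and NK cell list held the only called gene. Of 12 T and NK cell genes, 6 were tested and 1 rose, the T cell receptor component Cd3e, by 0.68 (SE 0.14, adjusted p = 0.0411 by limma) from a control mean of 5.53 below the filter value. The mean of the 12 ran from 5.56 to 5.83 on control and from 5.68 to 6.31 on lithium arrays, and 9 and 6 of them had group means under 6. All 10 neutrophil genes had group means under 6 in every group, with list means of 4.71 to 4.92 in control and 4.73 to 4.93 in lithium medulla. Of 7 dendritic cell genes, 3 were tested in medulla and none was called, with Batf3 at 0.21 and Ccr7 at 0.20. The means of these 7 ran from 5.45 to 5.72 on control and from 5.54 to 5.86 on lithium arrays.

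Red blood cell genes were higher in lithium medulla on average, with list means of 5.97 to 7.54 in control and 6.84 to 7.67 in lithium, and Slc4a1, the red cell anion exchanger, had 1.18 (SE 0.53, adjusted p = 0.253 by limma). The mast cell marker Kit, also present on other cells, had 0.89 in medulla (SE 0.22, adjusted p = 0.0710 by limma) and 0.66 in cortex (SE 0.17, adjusted p = 0.198 by limma), and the other 5 mast cell genes were too low to be tested. Of 4 B and plasma cell genes, Cd79b alone was tested in medulla, with -0.23 (SE 0.14).

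Epithelial markers had lower means in lithium medulla. All 10 proximal tubule markers had a negative difference with a median of -0.70, none called by limma and 6 at an unadjusted p under 0.05, their list means running from 7.51 to 8.91 on control and from 6.73 to 8.04 on lithium arrays. Slc34a1, the phosphate transporter of that segment, had -1.13 (SE 0.31, adjusted p = 0.0960 by limma). Collecting duct and inner medulla markers had list means of 9.69 to 10.57 in control and 9.13 to 10.07 in lithium medulla, with a median difference of -0.53 over 10 genes. None of the 10 was called there. The sodium channel genes Scnn1b, with 0.60 (SE 0.42), and Scnn1g, with 0.17 (SE 0.50), were the 2 that were higher. In cortex 3 of these 10 fell, among them the water channel gene Aqp2 by 1.46 on the log2 scale (SE 0.19, adjusted p = 0.00391 by limma), and 4 had a positive difference, the largest that of Slc5a3 with 0.70 (SE 0.23, adjusted p = 0.418 by limma). With no scan group in the fit 1 of these 4, Cryab, was called higher. Slc5a3 and Cryab were named after their values were seen. In cortex proximal tubule markers had a median of -0.09. The part of these shifts in the macrophage and C1q values was not tested.

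**Figure D5:**
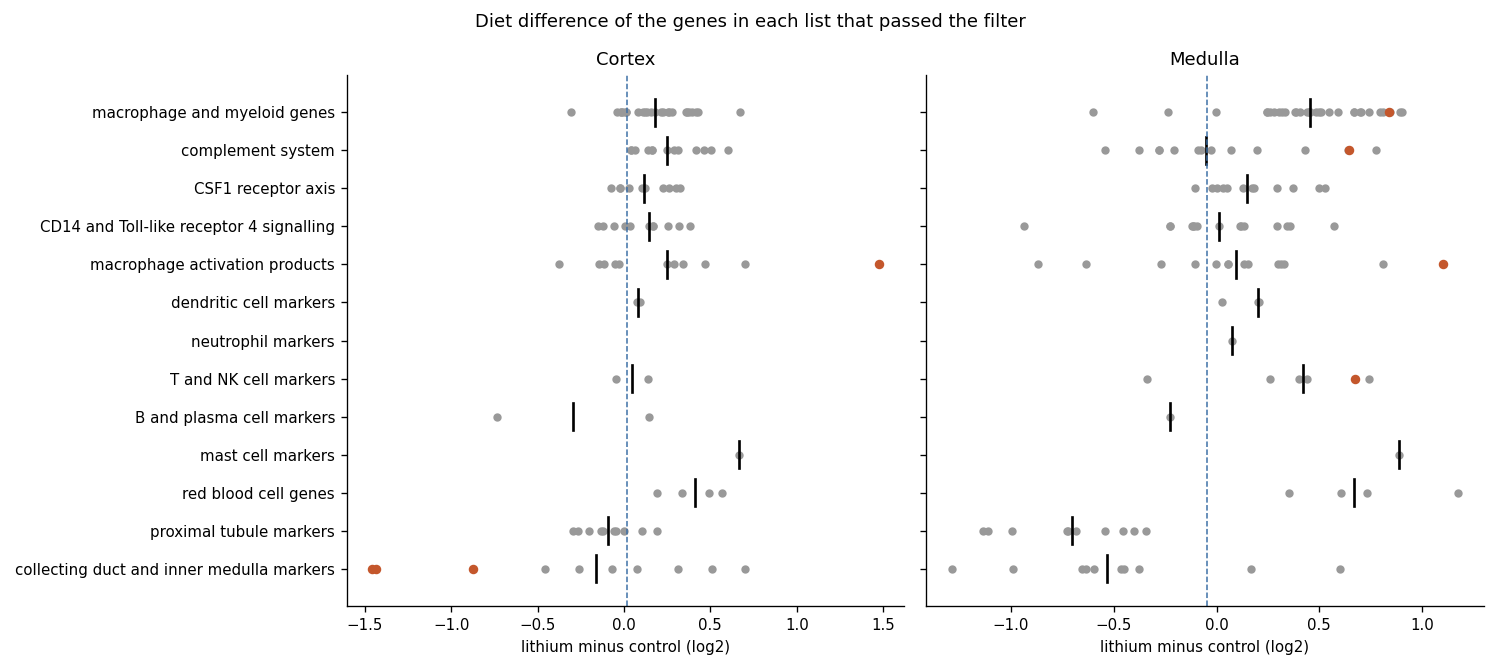
Lithium minus control on the log2 scale for the genes of each list that passed the filter, in cortex and medulla (grey points, red where the adjusted p by limma was under 0.05; black bar, median of the list; blue dashed line, median of all named genes tested). In medulla the macrophage and myeloid genes centre on 0.45 and the proximal tubule markers on -0.70.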

How the data were processed

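The authors deposited log2 signal intensities. The methods name the chips both as gene arrays and as exon arrays. Probe sets were background corrected by RMA, quantile normalised, log2 transformed and summarised by median polish in Partek. Scan date was removed per tissue by an analysis of variance with treatment, and probe sets were averaged per transcript. RMA, Partek and the build rn4 are named in the processing notes of the submitters. No scan date is given in the sources used here, so scan groups were recovered from directions without residual variance, a step tested on simulated data together with the fits. Array values carry no read depth, so that their number sets the precision.

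Of 28894 clusters, the platform annotation gives 15097 a single symbol, 323 more than 1 and 13474 no symbol. A gene with several clusters was represented by the one with the highest mean over 24 arrays. Diets were compared with limma 3.58.1 (lmFit, eBayes) in R 4.3.3 with scan group as covariate, over 13766 clusters in cortex and 16025 in medulla. Exact permutation tests (2-sided, arrays exchanged within scan groups), correlations (100000 permutations across scan groups, Benjamini-Hochberg over 45 pairs per tissue) and counts used scipy 1.17.1, pandas 2.3.3 and numpy 2.4.6 under Python 3.11.15, and figures matplotlib 3.10.9. Rats of a group are separate animals.

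Named genes are the 10 members, from each list up to 4 called genes with the largest change (otherwise up to 2 with the smallest p), and the 5 genes most like C1q in each tissue. C1r, C1s and Il34 were named for their roles. The members and lists were chosen with earlier results of these data known. Alternatives changed the scan group term, centring, quantile normalization, the filter (none, or log2 of 7), moderation, the test (the methods' t-test and analysis of variance) and each array in turn. Cortex and medulla are paired by the rat number in the labels. Over 11 rats the correlation of their deviations across 8089 genes ran from -0.09 to 0.41 and was over 0.1 in 6.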

Additional observations from a re-analysis of the deposited data

Results flagged for a closer look

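In lithium cortex, rat 19 lay far from the other 4 arrays with values of their own for 3 genes: Mrc1 (7.38, against a median of 5.45 of the others), C1qc (8.02 against 6.57) and Csf1r (8.80 against 7.49). The gap to the nearest array, divided by the range of the group, was 0.771, 0.728 and 0.733, above the critical value of 0.71 for 5 arrays. Among the 40 groups looked at, chance alone would single out about 1 in 20.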

How the results depend on the processing

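Scan date had been removed from the values, so a fit without the scan group term counts too many residual degrees of freedom. Fold changes did not depend on that term, but the number of calls did. Without it, calls went from 79 to 288 clusters in cortex, from 190 to 1052 in medulla and from 11 to 274 for the tissue difference, members called in medulla from 3 to 5, and list genes called from 1 to 3 (higher, cortex), 4 to 11 (higher, medulla) and 0 to 3 (lower, medulla). The methods' analysis of variance after Benjamini-Hochberg gave 14 clusters in cortex, 37 in medulla and 0 members, and the methods' t-test 296 and 650 clusters and 4 members in medulla. At the methods' thresholds (unadjusted p under 0.05 and a fold above 1.5) both passed Cd68, Mrc1, C1qa and C1qc in medulla, where 4.06% (t-test) and 3.48% (analysis of variance) of clusters passed, and no member in cortex, where 1.18% and 1.04% did. Without a filter 1 member (Mrc1) was called in medulla, with the stricter filter 2 (Cd68 and C1qa, with Mrc1 not tested), with arrays centred 2 (Cd68 and Mrc1) and with quantile normalization repeated 4. Centring gave 7 clusters for the tissue difference. Over the 8 alternatives other than leaving out arrays the adjusted p ran from 0.0105 to 0.122 for Cd68 and from 0.0117 to 0.125 for C1qa, and over 7 from 0.00898 to 0.112 for Mrc1. Leaving out 1 array at a time gave 34 to 92 clusters in cortex, 50 to 1053 in medulla and 3 to 34 for the tissue difference, and 0 to 5 members in medulla and 0 in cortex. With rats as a replicate block the tissue difference again had 11 clusters and no member. Exchanging arrays across scan groups moved the exact tests under 0.05 in cortex from 1 to 2. Directions turned for genes that were not called: Adgre1 in cortex without lithium rat 6 or 19 (-0.10 to 0.28 over the arrays left out in turn), Cd68 in cortex without lithium rat 19, filtered or not (-0.025 to 0.39), Csf1 in medulla without control rat 30 (-0.14 to 0.091) and with quantile normalization repeated (0.025), and the tissue difference of Cd14 without rat 19 (-0.27 to 0.030), of C1qb (-0.074 to 0.40) and of Csf1r (-0.18 to 0.31) without rat 22 or 30. The median r over all pairs in cortex went from 0.821 to 0.637 without the 2 arrays farthest from the median of the first gene of each pair. The fit without rat 19 and without a filter was chosen after seeing the data. Other clusters of a member could not be tried, since each has 1. Apart from the residual degrees of freedom without the scan group term, the cause of these changes was not tested.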
